A study of Homo sapiens with 3 samples.

Results

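A set of 33 genes of antigen presentation by the major histocompatibility complex (MHC) and of ligands for the NK cell receptor NKG2D was followed in 2 neuroblastoma cell lines. The members were listed by name, and each was measured by the probe sets whose annotation names that gene alone. In this way 32 of the 33 were measured, by 82 probe sets, out of 19775 genes measured on the arrays. PSME2 was not, since its probe set also names a microRNA gene. Untreated IMR-32 cells, untreated NGP cells and a pool of mRNA from 16 untreated cancer cell lines, labelled as the reference, were each hybridized to 1 Affymetrix U133 Plus 2.0 array. Both lines are established human neuroblastoma lines. Per the study's methods the 2 lines were grown in different media, so line and medium cannot be told apart. The lines in the pool are not given in the sources used here.

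The deposited values are MAS5 signals on a linear scale, in which each array has a mean of 500 when the highest and lowest 2% are left out. The median signal was 89.9 in IMR-32, 98.8 in NGP and 119 in the pool, and a signal below the median of its array is called dim here. By this definition about as many of all probe sets on an array are dim as are not. Ratios are log2 ratios of the signals, a gene's ratio is the median over its probe sets, and a gene among the highest 7% of all genes was called overexpressed, among the lowest 7% underexpressed. The lower cut-offs were -2.83 in IMR-32 and -2.88 in NGP, the upper ones 1.68 and 1.84, and the medians over all genes -0.23 and -0.22. Both comparisons share the pool array. With 1 array per sample there is no replicate error and no p-value is given, and the number of arrays limits the precision. Probe sets of 1 gene had ratios that spread by 1.31 (SD) in IMR-32 and by 1.41 in NGP. Of the 7 neuroblast marker genes measured, 4 were overexpressed in IMR-32 and 7 in NGP, with PHOX2A, a transcription factor of the sympathetic lineage, at 3.26 and 3.86. In IMR-32 the markers TH (-1.40) and DBH (-0.33) were below the pool, and GATA3 (1.63) fell short of the cut-off. The 5 epithelial markers were underexpressed in both lines, with medians of -7.45 and -7.80. KRT18, a keratin of simple epithelia, had signals of 98.2 in IMR-32, 117 in NGP and 28088 in the pool. The part of epithelial lines in the pool in the ratios below was not tested.

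MHC class I molecules are made of a heavy chain, encoded by the HLA class I genes, and of beta-2 microglobulin. They show peptides from inside the cell to cytotoxic T cells. The peptides are cut by the proteasome, whose immune form holds other catalytic subunits, and are pumped into the endoplasmic reticulum by the TAP transporter. There they are trimmed by the ERAP peptidases and loaded with the help of chaperones. MHC class II molecules show peptides from endosomes to helper T cells, mainly on immune cells, and depend on the transactivator CIITA. NKG2D ligands are stress-induced proteins of the class I fold that activate NK cells. Neuroblastoma is known as a tumour with little class I on its surface.

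HLA-B, HLA-C, HLA-E, MICA and MICB were underexpressed in both neuroblastoma lines, HLA-F and HLA-G in IMR-32 and ULBP2 in NGP. The peptide processing genes had median ratios of -1.61 in IMR-32 and -2.61 in NGP, against -0.23 and -0.22 over all genes. Of their 35 probe sets, 18 were dim in IMR-32 and 21 in NGP. With dim signals raised to the array median these medians were -1.06 and -0.77, against -0.41 and -0.27 over all genes. Of the 22 class II probe sets, 16 were dim in IMR-32, 14 in NGP and 15 in the pool. Over the pool, 12 of the 32 measured members were underexpressed in IMR-32 (37.5%) and 12 in NGP (37.5%), against 7% of all genes by definition. None was overexpressed in either line, again against 7%. The members were chosen with earlier results of these data known, so these shares describe the list and are no test of it. By class, 5 of 7 class I genes, 4 of 13 processing genes, 1 of 9 class II genes and 2 of 3 NKG2D ligand genes were underexpressed in IMR-32. In NGP these counts were 4, 5, 0 and 3. The median log2 ratio over all members was -1.73 in IMR-32 and -2.25 in NGP.

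**Figure D1:**
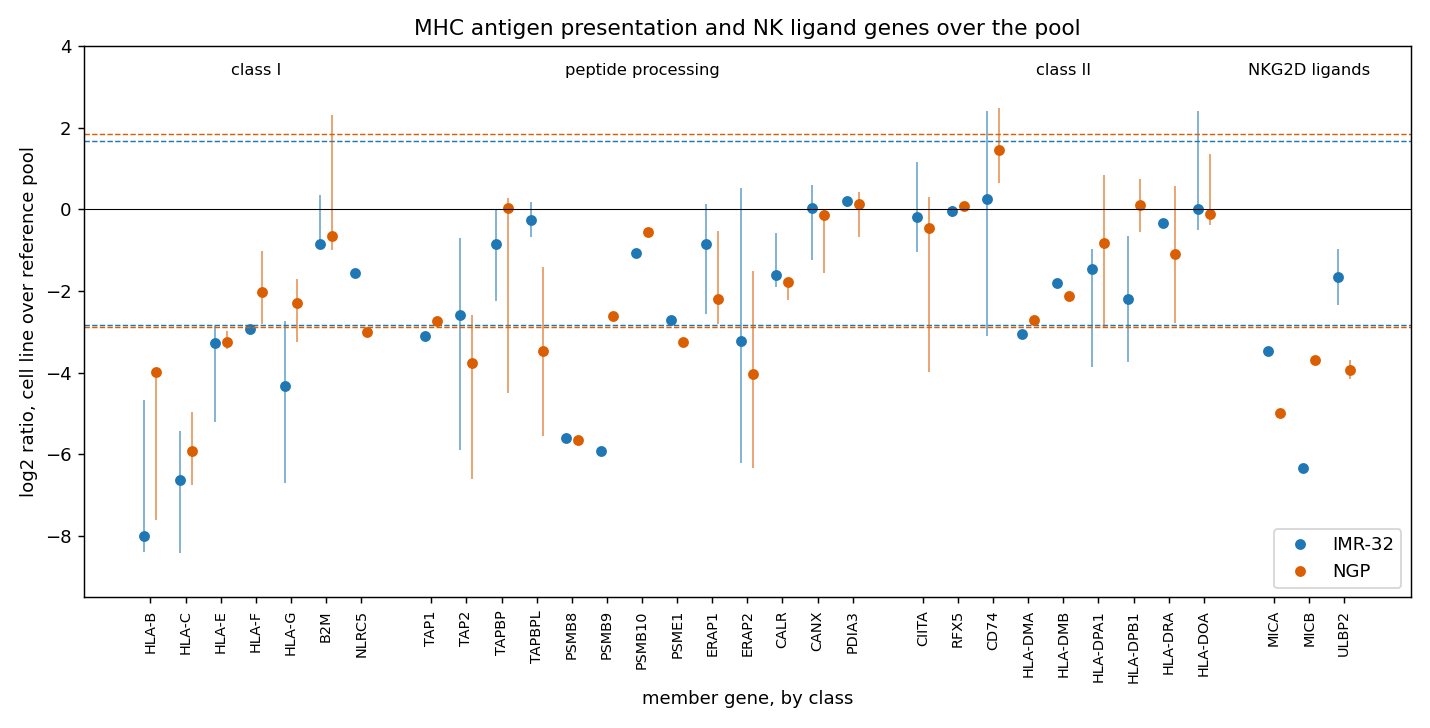
Log2 ratio over the reference pool (y-axis) of the 32 measured members by class (x-axis), in IMR-32 (blue) and NGP (orange). Points are medians over the probe sets of a gene, vertical lines run from the lowest to the highest probe set and dashed lines are the cut-offs. HLA-B and HLA-C are among the lowest members in both lines, at -8.00 and -6.63 in IMR-32 and at -3.98 and -5.91 in NGP, while RFX5, CANX and PDIA3 lie near 0.

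The promoters of 5 members are shown because class I genes and their partners share short elements that bind NF-kB, interferon regulatory factors and the RFX and NFY complexes. These are the RefSeq sequences on GRCh38.p14 from 250 bases before to 50 bases after the start of transcription, printed 5′ to 3′ along the gene, with motif matches on either strand in capitals. The motifs were CCAAT (core of the Y box, bound by NFY), TGACG (core of the X2 box), GAAANNGAA and GAANNGAAA (cores of the interferon response element) and GGGANNNCC (an NF-kB pattern of fixed spacing). NF-kB sites with a longer spacing, such as GGGACTTTCC in the TAP1 promoter, were not searched for and are not in capitals. The second interferon motif was added after the promoters had been seen, and the 2 interferon motifs can overlap.

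HLA-B, chr6:31357130-31357429, minus strand: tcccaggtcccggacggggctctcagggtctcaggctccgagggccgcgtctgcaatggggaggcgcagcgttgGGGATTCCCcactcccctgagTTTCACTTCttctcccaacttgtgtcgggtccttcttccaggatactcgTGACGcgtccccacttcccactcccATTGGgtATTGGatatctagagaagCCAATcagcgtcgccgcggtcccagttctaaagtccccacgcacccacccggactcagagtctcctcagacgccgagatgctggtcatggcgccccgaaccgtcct

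HLA-C, chr6:31272043-31272342, minus strand: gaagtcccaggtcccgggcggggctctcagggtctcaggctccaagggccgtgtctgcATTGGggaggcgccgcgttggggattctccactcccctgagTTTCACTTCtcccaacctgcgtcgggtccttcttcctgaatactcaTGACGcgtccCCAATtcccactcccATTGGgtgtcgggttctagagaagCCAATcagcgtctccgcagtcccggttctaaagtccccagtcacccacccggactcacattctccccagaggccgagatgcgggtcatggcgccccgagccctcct

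HLA-F, chr6:29723184-29723483, plus strand: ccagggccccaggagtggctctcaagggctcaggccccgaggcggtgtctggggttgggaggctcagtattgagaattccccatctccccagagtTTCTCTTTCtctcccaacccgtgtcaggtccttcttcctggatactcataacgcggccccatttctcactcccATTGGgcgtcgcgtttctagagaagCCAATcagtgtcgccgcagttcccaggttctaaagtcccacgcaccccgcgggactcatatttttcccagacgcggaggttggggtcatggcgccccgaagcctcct

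B2M, chr15:44711267-44711566, plus strand: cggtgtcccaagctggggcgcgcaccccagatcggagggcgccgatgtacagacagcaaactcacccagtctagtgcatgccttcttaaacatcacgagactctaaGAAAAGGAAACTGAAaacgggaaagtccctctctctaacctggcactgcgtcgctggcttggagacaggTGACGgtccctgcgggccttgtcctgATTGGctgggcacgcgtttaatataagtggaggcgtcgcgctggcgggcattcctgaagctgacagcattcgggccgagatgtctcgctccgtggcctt

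TAP1, chr6:32853655-32853954, minus strand: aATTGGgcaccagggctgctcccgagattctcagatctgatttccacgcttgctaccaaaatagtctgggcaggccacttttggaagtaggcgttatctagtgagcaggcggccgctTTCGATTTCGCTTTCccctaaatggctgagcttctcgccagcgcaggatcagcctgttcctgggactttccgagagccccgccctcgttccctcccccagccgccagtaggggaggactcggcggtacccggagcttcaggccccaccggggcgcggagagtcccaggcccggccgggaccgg

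Promoters were found for 28 of the 33 members. CCAAT was found for 19 of them, namely all 5 class I genes with a promoter (B2M, HLA-B, HLA-C, HLA-F and HLA-G), 5 of 13 processing genes, 6 of 7 class II genes and 3 of 3 NKG2D ligand genes, and in 34.6% of all 35116 promoters. GAAANNGAA was found for 15, namely 2 of 5 class I genes, 9 of 13 processing genes (TAP1, TAP2, PSMB8 and PSMB10 among them), 4 of 7 class II genes and 0 of 3 NKG2D ligand genes, and in 8.11% of all promoters. TGACG was found for 12 of the 28 members and in 24.6% of all promoters, GAANNGAAA for 10 and in 7.66%, and GGGANNNCC for 17 and in 22.9%. A member counts here if any of its promoters holds the motif, and by gene the shares over all genes were 39.7% for CCAAT, 9.86% for GAAANNGAA, 28.4% for TGACG, 9.31% for GAANNGAAA and 26.0% for GGGANNNCC. These matches describe letters and not bound sites. B2M, whose promoter holds GAAANNGAA as well as CCAAT and also TGACG, was among the members that were not called.

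HLA-B and HLA-C, which encode classical heavy chains, were the members with the largest falls in IMR-32. The 3 HLA-B probe sets had signals of 151, 27.2 and 15.4 in IMR-32, of 244, 36.1 and 334 in NGP and of 3852, 6975 and 5144 in the pool. All 3 were far higher in the pool, and in IMR-32 2 of the 3 were dim. The HLA-B ratio was -8.00 in IMR-32 (256-fold lower), the 30th lowest of 19775 genes, and -3.98 in NGP (15.8-fold lower). The 4 HLA-C probe sets had signals of 22.5, 29.0, 101 and 77.1 in IMR-32, of 71.9, 22.5, 249 and 150.4 in NGP and of 7685, 1252, 7805 and 9714 in the pool. The HLA-C ratio was -6.63 in IMR-32 (98.9-fold lower) and -5.91 in NGP (59.9-fold lower). Each of these 7 probe sets was higher in the pool than in both lines. The size of these ratios depends on dim signals in the lines. With every signal below its array's median raised to that median, HLA-B was still 57.2-fold lower in IMR-32 and 15.8-fold lower in NGP, and HLA-C 81.4-fold and 45.0-fold.

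The nonclassical heavy chain genes were lower too, by less. HLA-E, whose product presents leader peptides to NK cell receptors, had signals of 14.2, 127 and 268 in IMR-32, of 66.8, 114 and 205 in NGP and of 526, 1216 and 1947 in the pool. Its ratio was -3.26 in IMR-32 (9.59-fold lower) and -3.25 in NGP (9.51-fold lower), called in both lines. HLA-F had a ratio of -2.93 in IMR-32, past the cut-off of -2.83, and of -2.01 in NGP, which was not called. Its probe sets had signals of 14.5, 244 and 261 in IMR-32, of 61.0, 456 and 286 in NGP and of 123, 1839 and 1993 in the pool. HLA-G, known for its expression at the placenta, had a ratio of -4.32 in IMR-32 and of -2.30 in NGP, the first called and the second not. Of the 17 heavy chain probe sets 15 end in _x_at, a suffix for probes that can also bind related transcripts, and all those of HLA-B, HLA-C and HLA-G do. How far the HLA-G probe sets read other heavy chains cannot be told from these arrays.

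**Figure D2:**
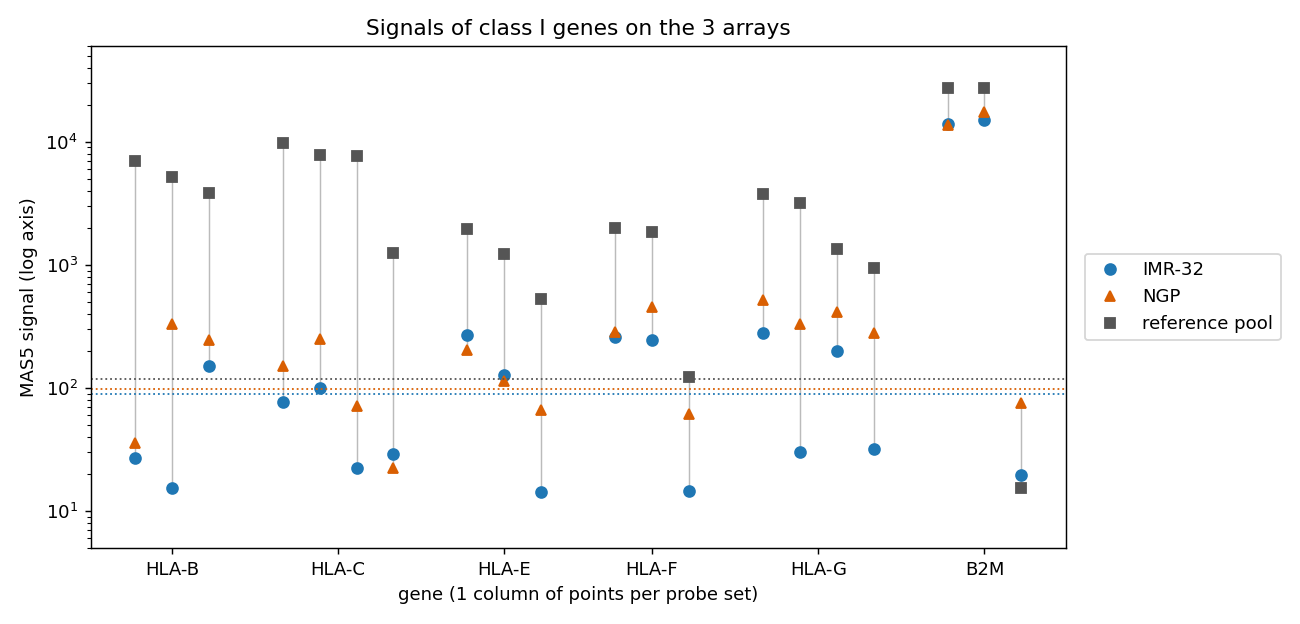
MAS5 signal on a log axis (y-axis) of each probe set of the 5 heavy chain genes and of B2M (x-axis) in IMR-32 (circles), NGP (triangles) and the pool (squares), with the median of each array as a dotted line. The 17 heavy chain probe sets are higher in the pool than in both lines, and the 2 bright B2M probe sets stay at or above 13730 on every array.

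B2M, the shared light chain, differed from its partners. Its 2 bright probe sets had signals of 14021 and 15054 in IMR-32, of 13730 and 17316 in NGP and of 27268 and 27225 in the pool. These are log2 ratios of -0.96 and -0.85 in IMR-32 and of -0.99 and -0.65 in NGP, so B2M was lower than in the pool by much less than the heavy chain genes. The third probe set was dim on all arrays (19.7, 76.0 and 15.3 in the same order). The gene's ratio was -0.85 in IMR-32 (1.81-fold lower) and -0.65 in NGP (1.57-fold lower), neither of them called. NLRC5, the transactivator of class I genes, was measured by 1 probe set with signals of 46.8 in IMR-32, 17.1 in NGP and 137 in the pool. It was at -1.55 in IMR-32 and at -3.00 in NGP, called in NGP alone. With dim signals raised to the array median these became -0.61 and -0.47 and neither was called.

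Of the immune subunits of the proteasome, PSMB8 and PSMB9 were well below the pool in both lines, and PSMB10 was nearer to it. The subunits they replace were near the pool. PSMB8, 1 of the 3 catalytic subunits induced by interferon gamma, had signals of 4.51 in IMR-32, 4.40 in NGP and 219.5 in the pool. Its ratios of -5.61 and -5.64 were both called. PSMB9, the second, had signals of 8.58 in IMR-32, 84.1 in NGP and 514 in the pool. It was at -5.90 in IMR-32, called, and at -2.61 in NGP, not called. PSMB10, the third, was well measured at 463, 663 and 967, with ratios of -1.06 and -0.54. The constitutive counterparts were near the pool, with PSMB5 at -0.15 in IMR-32 and 0.02 in NGP, PSMB6 at -0.43 and -0.09 and PSMB7 at -0.21 and -0.02. PSME1, a subunit of the PA28 activator induced by interferon gamma, had signals of 1003 in IMR-32, 689.6 in NGP and 6514 in the pool, well above dim on all 3 arrays. Its ratio was -2.70 in IMR-32, just short of the cut-off, and -3.24 in NGP, called (9.45-fold lower). PSME3, the nuclear activator of the same family, was at 0.82 and 0.79. The size of the PSMB8 ratio is not firm, since with dim signals raised to the array median it was -1.29 in IMR-32 and -1.15 in NGP and was not called.

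**Figure D3:**
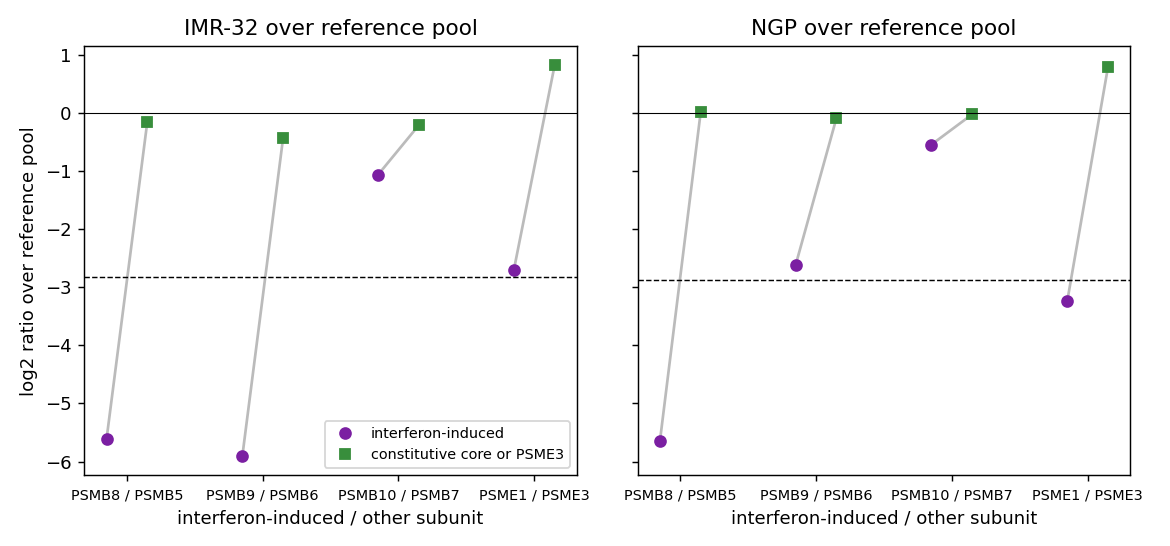
Log2 ratio over the reference pool (y-axis) of 4 interferon-induced proteasome genes (purple circles), each joined to a constitutive gene (green squares: the catalytic counterpart, or PSME3 for PSME1), in IMR-32 (left) and NGP (right), with the lower cut-off dashed. Each purple point lies below its green partner, by the most for PSMB9 in IMR-32 (-5.90 against -0.43) and for PSMB8 in NGP (-5.64 against 0.02).

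The transporter genes were lower than in the pool. TAP1, measured by 1 probe set, had signals of 61.2 in IMR-32, 78.7 in NGP and 527 in the pool. Its ratio was -3.11 in IMR-32, called (8.62-fold lower), and -2.74 in NGP, on the other side of the cut-off of -2.88. TAP2, the other chain of the transporter, had 4 probe sets, all of which were lower in both lines, with IMR-32 ratios between -5.88 and -0.70 and NGP ratios between -6.60 and -2.58. The TAP2 ratio was -2.58 in IMR-32, not called, and -3.76 in NGP, called. All 4 TAP2 probe sets were dim in both lines. With dim signals raised to the array median, which narrows the cut-offs, TAP2 was at -1.45 in IMR-32, called, and at -1.31 in NGP, not called. That TAP1 and TAP2 each passed the cut-off in 1 line with the deposited signals does not show that the lines differ. For NGP over IMR-32 the ratios were 0.36 for TAP1 and -1.18 for TAP2, neither of them called. A difference between the lines was not tested.

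The loading and trimming genes did not move together. TAPBP encodes tapasin, the bridge between TAP and class I. Its probe sets disagreed, with the brightest in the pool at 248 in IMR-32, 52.1 in NGP and 1181 in the pool (-2.25 and -4.50) and a second at 221, 224 and 219. Its median ratio was -0.84 in IMR-32 and 0.03 in NGP. TAPBPL, a tapasin-related editor of peptides, was at -0.25 in IMR-32 and at -3.48 in NGP, called in NGP. Its probe sets had signals of 202 and 100.2 in IMR-32, of 3.81 and 60.3 in NGP and of 178 and 160.2 in the pool, and the NGP call rested mainly on the first of these. ERAP2, a trimming peptidase, was called in both lines (-3.22 and -4.03), but 4 of its 5 probe sets were dim in the pool and the ratio fell short with dim signals raised to the array median (-0.41 and -0.27). ERAP1, its relative, was at -0.85 and -2.19, called in neither.

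The general chaperones of the endoplasmic reticulum, which also fold many other proteins, were bright on all arrays. CANX (calnexin) was at 0.04 in IMR-32 and -0.13 in NGP, and PDIA3, a disulphide isomerase of the loading complex, at 0.20 and 0.12. The brightest CANX probe set had signals of 8528, 8919 and 9734 in IMR-32, NGP and the pool. CALR (calreticulin) was lower, at -1.61 (3.05-fold) in IMR-32 and -1.77 (3.42-fold) in NGP, with all 3 probe sets below the pool. It was not called in either line. With dim signals raised to the array median, which narrows the cut-offs, the same values were called.

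Of the NKG2D ligand genes, MICA and MICB were underexpressed in both lines and ULBP2 in NGP. MICA had signals of 67.6 in IMR-32, 23.5 in NGP and 750.3 in the pool. Its ratio was -3.47 in IMR-32 (11.1-fold lower) and -4.99 in NGP (31.9-fold lower), both called. MICB had signals of 8.52 in IMR-32, 53.6 in NGP and 691 in the pool. Its ratio was -6.34 in IMR-32 and -3.69 in NGP, both called. The pool was above both lines for each gene. With dim signals raised to the array median the falls of MICA were 8.34-fold in IMR-32 and 7.60-fold in NGP, and those of MICB 7.68-fold and 6.99-fold. ULBP2, a ligand of the ULBP family, had signals of 119.8 and 99.2 in IMR-32, of 13.2 and 38.8 in NGP and of 235 and 498 in the pool. It was at -1.65 in IMR-32, not called, and at -3.92 in NGP, called. All 4 probe sets of these genes were dim in NGP, and 2 of the 4 were in IMR-32.

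Most class II genes gave little signal on these arrays, with RFX5, HLA-DMA and HLA-DMB as exceptions. Of the 22 probe sets of the class, 16 were dim in IMR-32, 14 in NGP and 15 in the pool, and 12 were dim on all 3. HLA-DRA, the alpha chain of HLA-DR, had signals of 6.21 and 57.3 in IMR-32, of 12.3 and 9.86 in NGP and of 8.24 and 67.8 in the pool. CD74, the invariant chain that escorts class II, had its brightest probe set at 99.8 in IMR-32, 105 in NGP and 18.8 in the pool. The pool was thus dim for both genes. CIITA was at -0.18 and -0.45, and its 3 probe sets were all dim in the pool. HLA-DPA1 (-1.47 and -0.82), HLA-DPB1 (-2.19 and 0.10) and HLA-DOA (0.01 and -0.10) were not called in either line. The HLA-DPB1 probe sets disagreed, with signals of 15.5 and 26.8 in IMR-32, 139 and 71.4 in NGP and 205 and 42.4 in the pool. With its brightest probe set alone, or without dim probe sets, HLA-DPB1 was underexpressed in IMR-32 (-3.72). HLA-DQB1, a further class II chain that is no member, was at -1.95 in IMR-32 and at -3.57 in NGP, called in NGP. Of its 7 probe sets 4 were not dim in the pool, with signals of up to 329.7. Of the 16 probe sets of haematopoietic markers 14 were dim in the pool, among them all 5 of PTPRC, the common leukocyte antigen. The other 2 belong to CD3E (177) and CD79A (227). CD3E (-3.39) and CD14 (-3.19) were underexpressed in IMR-32, and LYZ (2.30) was overexpressed in NGP. The LYZ probe sets disagreed in NGP (5.80 and -1.19) and were dim in the pool, and the probe set of CD14 was dim on all 3 arrays. The part of these markers in the class II ratios was not tested.

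HLA-DMA and HLA-DMB, the 2 chains of the factor that exchanges peptides on class II, had signals well above the array median in the pool. HLA-DMA had signals of 68.8 in IMR-32, 86.9 in NGP and 566 in the pool, with ratios of -3.04, called, and -2.70, not called. HLA-DMB had signals of 193, 155 and 678, with ratios of -1.81 and -2.13, called in neither. RFX5, the DNA-binding subunit of the RFX complex at class I and class II promoters, was bright and level. Its probe sets had signals of 867 and 2835 in IMR-32, of 1025 and 2901 in NGP and of 981 and 2669 in the pool, and its ratios were -0.04 and 0.09.

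Set directly against IMR-32, NGP had 4 members in the top and 2 in the bottom 7% of genes (12.5% and 6.25% of 32, against 7% of all genes for each call). The cut-offs were 1.95 and -1.84. The 4 were PSMB9 (3.29), MICB (2.65), HLA-DPB1 (2.29) and HLA-G (2.09), and the 2 were TAPBPL (-3.23) and ULBP2 (-2.27). PSMB9 and MICB were dim in both lines. HLA-G was measured on the NGP side by signals of 334, 519.7, 281 and 414, all above the array median, against 30.2, 280.2, 32 and 201 in IMR-32. All 4 of its probe sets were higher in NGP, from 0.89 to 3.47, although they may read related heavy chains. With dim signals raised to the array median, HLA-G alone of the 6 was still called (1.35). It was not called with its brightest probe set alone (0.89) or with 5% cut-offs. Of all 17 heavy chain probe sets 14 were higher in NGP, and the gene medians were 0.69 for HLA-B, 1.13 for HLA-C, -0.15 for HLA-E and 0.90 for HLA-F. These medians are smaller than the spread of probe sets of 1 gene in this comparison (SD of 1.28). That SD describes single probe sets and is not the error of a gene median. The HLA-E and HLA-F probe sets that do not end in _x_at were at 2.23 and 2.07, and both were dim in both lines.

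**Figure D4:**
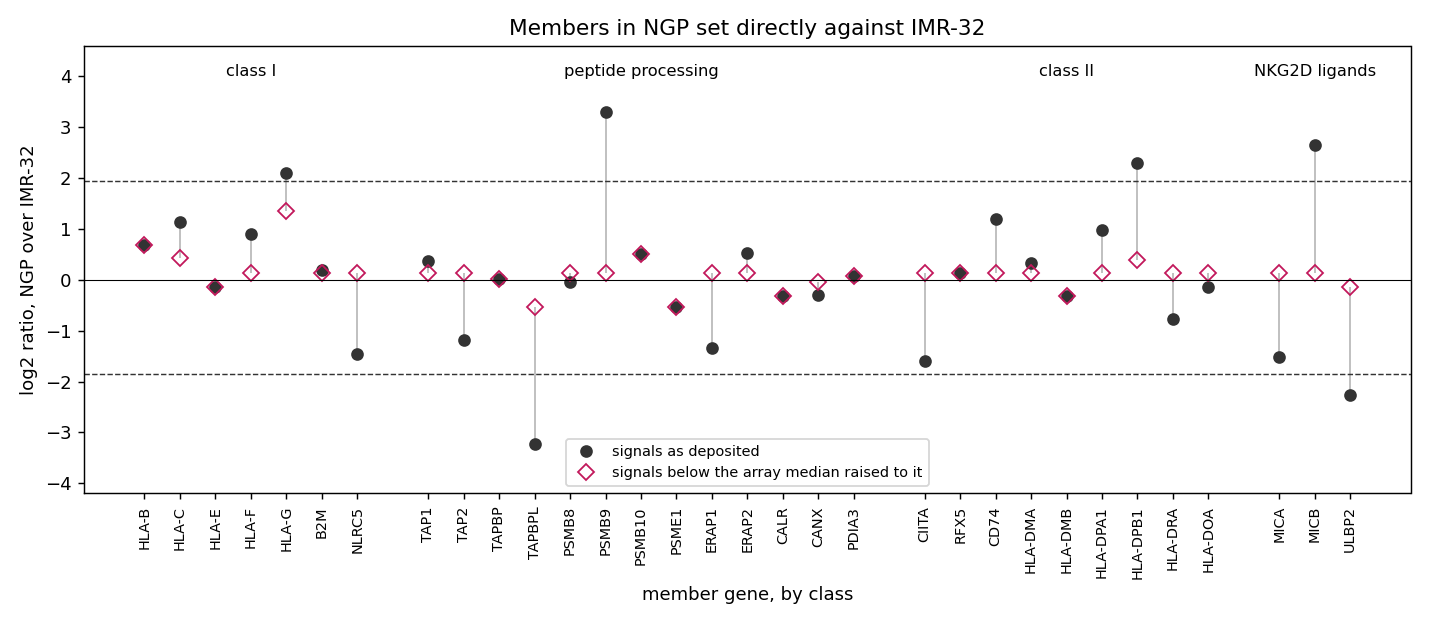
Log2 ratio of NGP over IMR-32 (y-axis) of the 32 measured members by class (x-axis), from the deposited signals (filled circles) and with signals below the array median raised to it (open diamonds), with the cut-offs for the deposited signals dashed. Members that are dim in both lines fall to 0.14, the ratio of the 2 array medians, among them PSMB9 and MICB, while HLA-G stays at 1.35.

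Few of the genes that act above or beside the members were called. The 10 measured regulators of the interferon gamma and NF-kB pathways had median ratios of -0.49 in IMR-32 and -0.70 in NGP, and 0 of 10 was called in either direction in either line. IRF1, which binds the interferon response element, was at -0.69 and -1.34, IFNGR1, a chain of the interferon gamma receptor, at 0.60 and 0.31, JAK1, its kinase, at 0.00 and -0.02 and NFKB1 at -1.17 and -1.44. Of the 6 partners of RFX5 and CIITA, RFXAP, a subunit of the RFX complex, was overexpressed in both lines (1.71 and 2.37). NFYA (1.47 and 0.13) and NFYB (1.38 and -0.17), subunits of the CCAAT-binding factor, were not called. CREB1 was at 0.92 and 0.84, NFYC at -0.43 and 0.04 and RFXANK at -0.85 and -0.60. Over all 36 other pathway genes measured, 1 was underexpressed and 2 overexpressed in IMR-32, and 2 and 2 in NGP. These are 2.78% and 5.56% of them in IMR-32 and 5.56% for each call in NGP, against 7% of all genes, and the 0 of 10 regulators is read against the same share. The genes called were NECTIN2, NCR3LG1, RFXAP and, in NGP, HLA-DQB1.

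Other ligands of NK cells did not share 1 direction. NECTIN2, a ligand of the receptor DNAM-1, was underexpressed in both lines (-3.56 and -3.62), with each of its 4 probe sets lower than in the pool. PVR, the other ligand of that receptor, was at -1.02 and -0.62, called in neither. NCR3LG1, the ligand of the activating receptor NKp30, was overexpressed in both lines, with signals of 462 in IMR-32, 1022 in NGP and 122 in the pool and ratios of 1.92 and 3.07. CD276, an immune checkpoint protein of neuroblastoma, was at 0.75 and -0.62. ULBP1 and ULBP3 were dim on all 3 arrays.

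Most of the members lie together in the MHC on chromosome 6, and their median ratio was lower than that of the genes between them. In the order of genes on GRCh38.p14, the measured genes from HLA-F to TAPBP comprise 18 members, 4 further class II pathway genes and 111 others. The members had a median ratio of -3.07 in IMR-32, with 11 of 18 underexpressed, and of -2.66 in NGP, with 7 of 18. The 111 other genes had medians of -0.16 and -0.49, and 7 and 5 of them were underexpressed (6.31% and 4.50%), beside the 7% of all genes. The 14 measured members elsewhere in the genome had medians of -0.85 and -1.21, with 1 and 5 underexpressed. No test was made of these differences, since there is 1 array per sample.

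**Figure D5:**
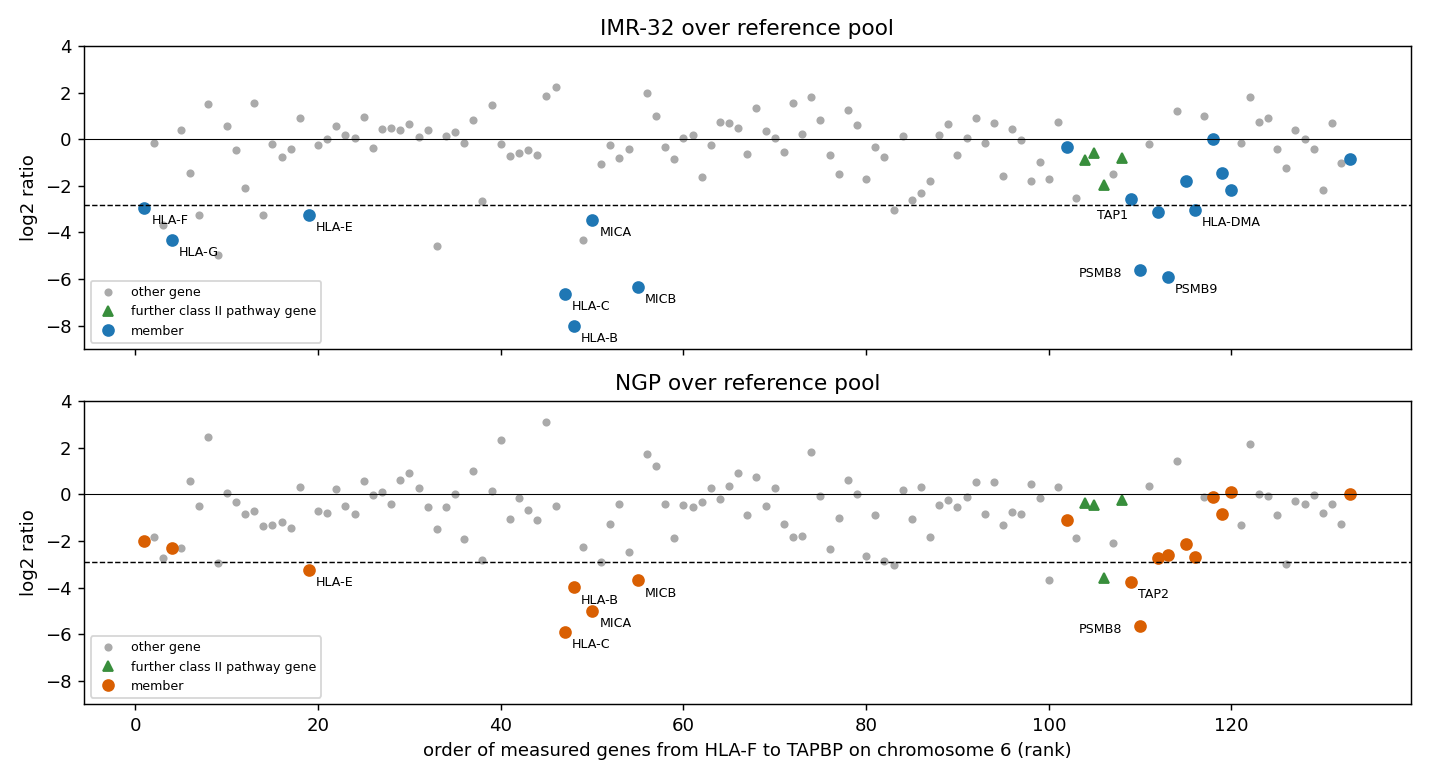
Log2 ratio over the reference pool (y-axis) of the measured genes from HLA-F to TAPBP in their order on chromosome 6 (x-axis, rank), in IMR-32 (top) and NGP (bottom). Members are large coloured points, named where underexpressed, further class II pathway genes are green triangles, other genes are grey and the lower cut-off is dashed. HLA-B, HLA-C, HLA-E, MICA, MICB and PSMB8 lie below the cut-off in both lines, among grey points whose medians are -0.16 and -0.49.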

How the data were processed

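Cells of the 2 lines and the pool were analysed by the authors on Affymetrix U133 Plus 2.0 arrays, from 3 micrograms of mRNA each, and the deposited intensity values are linear MAS5 signals made with the Bioconductor package affy (version not given in the sources used here). Each array has a trimmed mean of 500, and no signal was at or below 0.

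Control probe sets (62) were not used. Gene values rest on the 41091 probe sets that name 1 gene symbol, 41037 of them matched by gene ID to the RefSeq gene table (GRCh38.p14) for current symbols. Log2 ratios were taken without a pseudocount, the gene value was the median over probe sets, and the top and bottom 7% (1384 genes each) were called, as in the study's methods. All members and all genes of lists of pathway partners and cell type markers were eligible to be named. The members and lists were chosen with earlier results of these data known. The alternatives were median-centring, quantile normalization, log2(signal + 32), leaving out probe sets whose higher signal of the pair was dim, the mean over probe sets in place of the median, the brightest probe set alone, leaving out _s_at and _x_at probe sets, and 5% and 10% cut-offs. Raising dim signals to the array median was added after seeing the data. The ranking was tested on simulated data. Calculations used pandas 2.3.3 and numpy 2.4.6 under Python 3.11.15, with SciPy 1.17.1, and plots used matplotlib 3.10.9. Promoters are from RefSeq.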

Additional observations from a re-analysis of the deposited data

How the results depend on the processing

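No paired analysis was possible because each group holds 1 array. Over the pool, the calls of HLA-B, HLA-C, MICA and MICB were kept in both lines under every alternative that gave them a value, as were those of HLA-G and PSMB9 in IMR-32 and of ULBP2 in NGP. HLA-B, HLA-C and HLA-G have no value without _s_at and _x_at probe sets. The 12 underexpressed members of IMR-32 became 7 with 5% cut-offs and 7 of 26 without _s_at and _x_at probe sets, and lay between 9 and 15 otherwise. In NGP the count lay between 9 and 18. CD74 was overexpressed, as 1 member in IMR-32 and 1 in NGP (2.41 and 2.48), with the brightest probe set and without dim probe sets, and 1 member, B2M, was overexpressed in NGP without _s_at and _x_at probe sets, where only its dim probe set remains (2.31). For NGP over IMR-32, 0 of the 4 members in the top and 0 of the 2 in the bottom 7% kept their call under every alternative. Raising dim signals to the array median left 0 members in the bottom and 1 in the top 7%, and 10% cut-offs gave 5 in the bottom. Of the class medians, that of class I for NGP over IMR-32 was 2.01 without _s_at and _x_at probe sets (4 genes). With dim signals raised to the array median, that of processing genes in NGP over the pool was -0.77 and that of NKG2D ligands for NGP over IMR-32 was 0.14. No called member changed sign under any of these settings. The cause of these shifts was not tested, beyond the fewer genes tested in the 2 settings that leave out probe sets. Dim signals set the limit: 47 of the 82 member probe sets were dim in IMR-32, 46 in NGP and 27 in the pool. By definition about as many of all probe sets on an array are dim as are not.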

Other observations

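Probe sets that name several genes, which took no part in the gene values, were also lower than in the pool where they name MICA, MICB or PSME2. The probe set naming MICA and MICB together had signals of 52.5 in IMR-32, 72.4 in NGP and 682 in the pool. That naming PSME2, the partner of PSME1 in the PA28 activator, with a microRNA gene had signals of 1696, 1886 and 7412. Those shared among the HLA-DRB and HLA-DQB1 genes were at most 116 in IMR-32, 193 in NGP and 205 in the pool.

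Among the genes between the members on chromosome 6, HLA-J, a pseudogene of the class I family, was at -4.97 in IMR-32 and at -2.94 in NGP and was underexpressed in each. MICA-AS1, antisense to MICA (-4.33 and -2.26), and HCG4 (-3.68 and -2.74) were underexpressed in IMR-32. IER3, an early response gene that is not part of antigen presentation, was at -4.57 in IMR-32 and at -1.50 in NGP. These genes were chosen after their values were seen.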
